A study of Rattus norvegicus with 18 samples.

Results

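Mesenchymal stem cells (MSCs) of wild-type (WT) rats were compared between libraries labelled FBS and libraries labelled SSt, the label for serum starvation. The same comparison in MSCs of miR-337 knockout rats (miR-337-/-, KO) is set beside it near the end. Bone marrow MSCs are adherent stromal cells that can form bone, fat and cartilage cells in culture. Serum carries growth factors, lipoproteins and lysophospholipids. In resting stromal cells it is known to start a wave of immediate early transcription factors through ERK and SRF, then cyclins, DNA replication genes and mitosis genes, while starved cells express growth arrest genes and targets of FOXO factors. Serum lipoproteins are also known to lower the genes of sterol synthesis, because cells that take up cholesterol keep SREBP2 inactive.

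The cells came from the marrow of 2-month-old WT rats, were used at passage 3 and were starved of serum for 8 h. The FBS group was then given fetal bovine serum for 24 h by the sample labels, and the SSt group is the one that the labels call serum-starved. By the labels the KO cells had the same age, passage, starvation time and treatment time. The study's methods give a shorter time, seeding on flexible plates and growth in serum medium before the starvation. There were 3 libraries in each group, and no source used here says whether they came from different rats, cultures or days, so the tests below weigh the groups against the scatter of these libraries only, which may be technical. All genes of the WT table were members, 32623 lines, of which 12916 reached 1 FPKM in 3 or more of the 9 WT libraries and were tested. FPKM is the read count scaled by transcript length and by library size. The 3 further libraries of the WT table, labelled CMS for cyclic mechanical stretch without serum, entered this filter, the scaling and the estimate of the spread. Their levels are not described here. Depth was 63.38 to 71.85 M counts per SSt library and 58.95 to 66.67 M per FBS library. Correlation of log2 CPM (counts scaled to library size) between libraries was 0.969 to 0.972 within a group and 0.890 to 0.899 between the groups.

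A gene was called when the adjusted p of edgeR's quasi-likelihood test was under 0.05 and the fold was at least 2. Log2 fold changes are FBS minus SSt throughout, so a negative value is a lower level in the libraries labelled FBS. Of the 12916 genes tested, 2078 were called (16.1%), 1156 higher (8.95%) and 922 lower (7.14%) in FBS. Each count of called list members in WT below stands beside these shares of all genes, 8.95% higher and 7.14% lower. The adjusted p alone was passed by 66.4% of genes, and in 71.4% the 3 values of one group lay wholly above those of the other (38.5% with FBS above and 32.8% with FBS below). The median log2 fold change over all genes tested was 0.01. Of the called genes, 334 were at least 4-fold higher and 308 at least 4-fold lower. At 32-fold and more the counts were 20 higher and 53 lower.

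**Figure D1:**
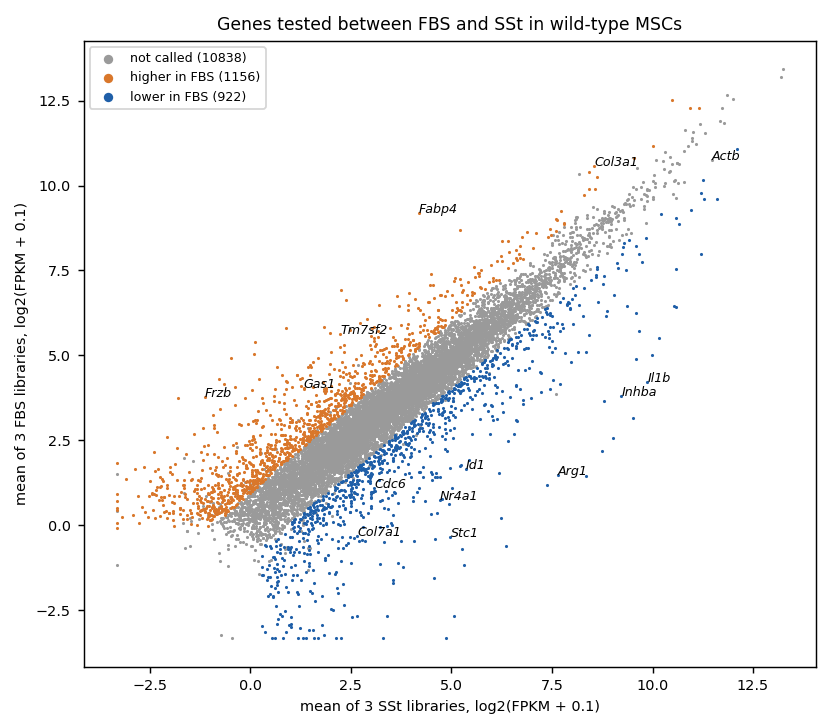
Mean level of each tested gene in the 3 SSt libraries (x axis) and the 3 FBS libraries (y axis), both as log2(FPKM + 0.1). Orange points are the 1156 genes called higher in FBS, blue points the 922 called lower and grey points the genes not called. Fabp4 lies far above the diagonal and Stc1 and Inhba far below it.

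Several groups of genes that mark serum-fed cells were lower in the libraries labelled FBS. Replication genes were lower at the adjusted p in 34 of 37 and mitosis genes in 34 of 35, beside 32.7% of all genes. The immediate early gene Nr4a1 was over 16-fold lower. Called higher were 21 of 27 sterol genes and 9 of 26 growth arrest genes and FOXO targets, beside 8.95% of all genes. Of the latter list, 2 genes were called lower, beside 7.14% of all genes. Apart from these 2, the replication, mitosis, sterol and growth arrest genes counted here went against the known response to serum stated above. Serum switches immediate early genes on within an hour, and these libraries were taken after 24 h by the labels. Nr4a1 is therefore not set against that early wave. No value in the tables names the medium that a library received, so the match of labels to libraries cannot be checked here. Below, the FBS libraries and the SSt libraries are those labelled so, and every direction rests on the labels.

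The libraries were also not of stromal cells alone. The summed level of 23 macrophage markers, of which 20 passed the filter, was 4739.9 to 4861 FPKM in the SSt libraries and 7772 to 8167 in the FBS libraries. The sum over 24 stromal markers ran from 2006 to 2048 FPKM in SSt and from 1321 to 1346 in FBS. Single stromal markers went both ways, with 6 of 22 tested called lower and 4 higher, beside 7.14% and 8.95% of all genes. Ptprc, the pan-leukocyte marker CD45, measured 30.5, 32.2 and 34.4 FPKM in the SSt libraries and 44.8, 45.5 and 58.5 in the FBS libraries. Lyz2, lysozyme, made up most of the difference in the macrophage sum: over the other 22 genes it ran from 2495 to 2523 FPKM in SSt and from 2967 to 3083 in FBS. Macrophage markers were thus abundant in both groups, and the part of such cells in the results below was not tested. In bulk libraries, fewer cells of a type and less RNA per cell cannot be told apart. Lepr, the leptin receptor and a known marker of marrow MSCs, had 0, 0 and 0 FPKM in the SSt libraries and 0.0156, 0 and 0 in the FBS libraries, so this marker was at or near 0 in all 6. The other stromal markers are described further on.

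Promoter sequences of 6 called genes are shown because short motifs for known cell cycle or lysosomal factors, or in Btg2 the cAMP response element, stand in them. The sequences are RefSeq promoters of the GRCr8 rat build, found by symbol, each printed as the 250 bases before the annotated start on the gene's own strand, 5′ to 3′, with the motif in capitals. The search covered windows from 250 bases before to 50 after the start, on both strands, over 27457 genes with 1 window each. The E2F-type letters TTTGGCGC, TTTCCCGC, TTTCGCGC and TTTGCCGC occurred in 15 of 31 matched replication genes (48.4%) and in 2.25% of all windows. The CHR letters TTTGAA, known from genes of G2 and M phase, occurred in 19 of 29 matched mitosis genes (65.5%) and in 18.1% of all windows, and CCAAT in 65.5% and 37.7%. The cAMP response element TGACGTCA stood in 4 of 17 immediate early genes (23.5% beside 1.91% of all). The TFEB-type letters TCACGTGA stood in 4 of 26 lysosome genes (15.4% beside 0.867%), and the E-box CACGTG, which they contain, in 4 of 15 clock genes (26.7% beside 6.65%). The sterol element letters TCACNCCAC were in none of the 18 matched sterol genes and in 1.13% of all windows, which says only that these letters are not in these windows. A match of letters is no evidence that a factor bound there. Shown are 2 replication genes with the E2F-type letters (Mcm6 and Mcm5), 1 gene each with CHR (Anln), CCAAT (Ccnb1), the cAMP element (Btg2) and the TFEB-type letters (Ctsd), in each case called members with the largest change whose motif lies before the start. Capitals also mark a motif read on the other strand, and overlapping matches run together.
Mcm6 (chr13:42404353-42404602, - strand): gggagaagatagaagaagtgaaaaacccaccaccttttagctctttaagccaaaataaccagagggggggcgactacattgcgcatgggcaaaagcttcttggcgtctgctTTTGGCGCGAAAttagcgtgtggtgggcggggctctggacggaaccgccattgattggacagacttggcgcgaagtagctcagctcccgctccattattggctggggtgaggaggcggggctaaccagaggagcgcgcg
Mcm5 (chr19:13488563-13488812, + strand): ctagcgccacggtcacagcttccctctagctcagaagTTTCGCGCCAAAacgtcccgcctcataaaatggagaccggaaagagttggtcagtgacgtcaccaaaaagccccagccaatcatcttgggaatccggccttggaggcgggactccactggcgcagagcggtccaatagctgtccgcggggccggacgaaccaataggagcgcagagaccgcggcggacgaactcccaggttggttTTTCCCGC
Anln (chr8:29197514-29197763, - strand): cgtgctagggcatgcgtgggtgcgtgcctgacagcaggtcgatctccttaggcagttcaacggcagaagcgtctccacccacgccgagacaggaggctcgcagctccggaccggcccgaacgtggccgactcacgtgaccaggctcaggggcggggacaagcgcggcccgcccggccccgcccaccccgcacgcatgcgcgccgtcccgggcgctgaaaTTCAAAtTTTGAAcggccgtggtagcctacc
Ccnb1 (chr2:33655226-33655475, - strand): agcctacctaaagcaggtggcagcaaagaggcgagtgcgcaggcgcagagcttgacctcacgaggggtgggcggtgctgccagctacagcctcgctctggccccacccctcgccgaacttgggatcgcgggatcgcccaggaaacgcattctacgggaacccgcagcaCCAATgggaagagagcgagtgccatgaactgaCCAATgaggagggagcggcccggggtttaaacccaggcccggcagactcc
Btg2 (chr13:48087691-48087940, - strand): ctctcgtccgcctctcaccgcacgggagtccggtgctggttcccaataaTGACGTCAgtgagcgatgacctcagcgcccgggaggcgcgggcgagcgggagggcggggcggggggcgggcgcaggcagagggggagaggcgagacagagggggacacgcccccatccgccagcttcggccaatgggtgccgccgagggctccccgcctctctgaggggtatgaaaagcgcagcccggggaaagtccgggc
Ctsd (chr1:206968822-206969071, - strand): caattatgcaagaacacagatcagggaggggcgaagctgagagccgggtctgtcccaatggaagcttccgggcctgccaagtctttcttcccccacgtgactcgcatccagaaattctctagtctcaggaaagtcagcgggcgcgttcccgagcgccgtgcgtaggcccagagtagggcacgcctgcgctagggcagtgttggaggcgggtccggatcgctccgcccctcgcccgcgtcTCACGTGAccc

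Immediate early factors, the transcription factors and mRNA-decay proteins that serum switches on within an hour, were mostly lower in FBS. Of 24 tested (27 in the table), 11 were called lower and 3 higher, with a median log2 fold change of -0.73 against 0.01 over all genes. Nr4a1, an orphan nuclear receptor, measured 26.5, 26.99 and 24.6 FPKM in the SSt libraries and 1.62, 1.11 and 1.96 in the FBS libraries (log2 fold change -4.09 with an SE of 0.19, adjusted p = 3.80e-08). Its relatives Nr4a3 and Nr4a2 had log2 fold changes of -3.12 and -2.73. Btg2, an antiproliferative gene whose promoter is shown above, measured 34.3, 33.05 and 30.5 FPKM in the SSt libraries and 5.77, 5.77 and 5.85 in the FBS libraries. In each of these the FBS libraries lay wholly below the SSt libraries. Ier3 (-2.61), the AP-1 subunits Fosl1 (-1.64) and Fos (-1.45), Srf, which binds serum response elements (-1.24), Zfp36, an mRNA-decay protein (-1.41), and Egr1 (-1.004, at the limit of a call) were also called lower. The 3 called higher were Egr2, Atf3 and Klf4. Egr2 measured 1.16, 0.956 and 1.28 FPKM in the SSt libraries and 11.9, 12.1 and 11.9 in the FBS libraries (log2 fold change 3.36 with an SE of 0.10, adjusted p = 1.43e-09). The stress factor Atf3 measured 2.57, 2.82 and 3.08 FPKM in the SSt libraries and 16.1, 16.4 and 17.3 in the FBS libraries. Klf4, a factor that restrains division in many cells, measured 22.3, 21.4 and 21.2 FPKM in the SSt libraries and 74.3, 65.3 and 69.1 in the FBS libraries (log2 fold change 1.65 with an SE of 0.050, adjusted p = 1.76e-09). All FBS libraries were above all SSt libraries for these 3 genes. Myc, the growth factor-induced driver of biosynthesis, measured 21.9 ± 0.719 FPKM in SSt against 18.2 ± 0.272 in FBS and was not called (log2 fold change -0.30), nor were Jun (0.34), Junb (-0.72) and Jund (0.75).

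Genes that ERK signalling induces to limit itself followed, together with EGF family ligands. Of 15 feedback and ETS genes tested, 8 were called lower and 2 higher, with a median of -1.22. Phlda1 measured 212, 211 and 200.4 FPKM in the SSt libraries and 17.4, 17.3 and 18.6 in the FBS libraries (log2 fold change -3.58 with an SE of 0.040, adjusted p = 1.09e-11). Spry4, an inhibitor of receptor tyrosine kinase signalling, measured 10.1, 10.03 and 9.64 FPKM in the SSt libraries and 1.33, 1.39 and 1.28 in the FBS libraries. Dusp1, a phosphatase of MAP kinases, measured 128, 125 and 129 FPKM in the SSt libraries and 28.5, 28.7 and 27.6 in the FBS libraries. The groups did not overlap in any of the 3. Dusp2 (-2.84), Dusp5 (-1.94), the EGF receptor inhibitor Errfi1 (-1.71) and Etv4 (-1.47) were lower as well. The ETS factors Etv5 (1.33) and Etv1 (2.02) were called higher, although they belong to the same list. Dusp6, the phosphatase most specific to ERK, had a log2 fold change of -0.86 and was not called. Of the ligands, Hbegf measured 36.6, 38.1 and 37.3 FPKM in the SSt libraries and 3.63, 3.35 and 2.97 in the FBS libraries (log2 fold change -3.52 with an SE of 0.073, adjusted p = 1.91e-10). Nrg1, the ligand of ERBB3 and ERBB4, measured 33.8, 32.3 and 29.8 FPKM in the SSt libraries and 2.42, 1.77 and 1.99 in the FBS libraries. Ereg (-3.54) and Tgfa (-2.66) were also over 4-fold lower. The receptor Egfr itself measured 16.5 ± 0.381 FPKM in SSt against 12.5 ± 0.310 in FBS and was not called.

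**Figure D2:**
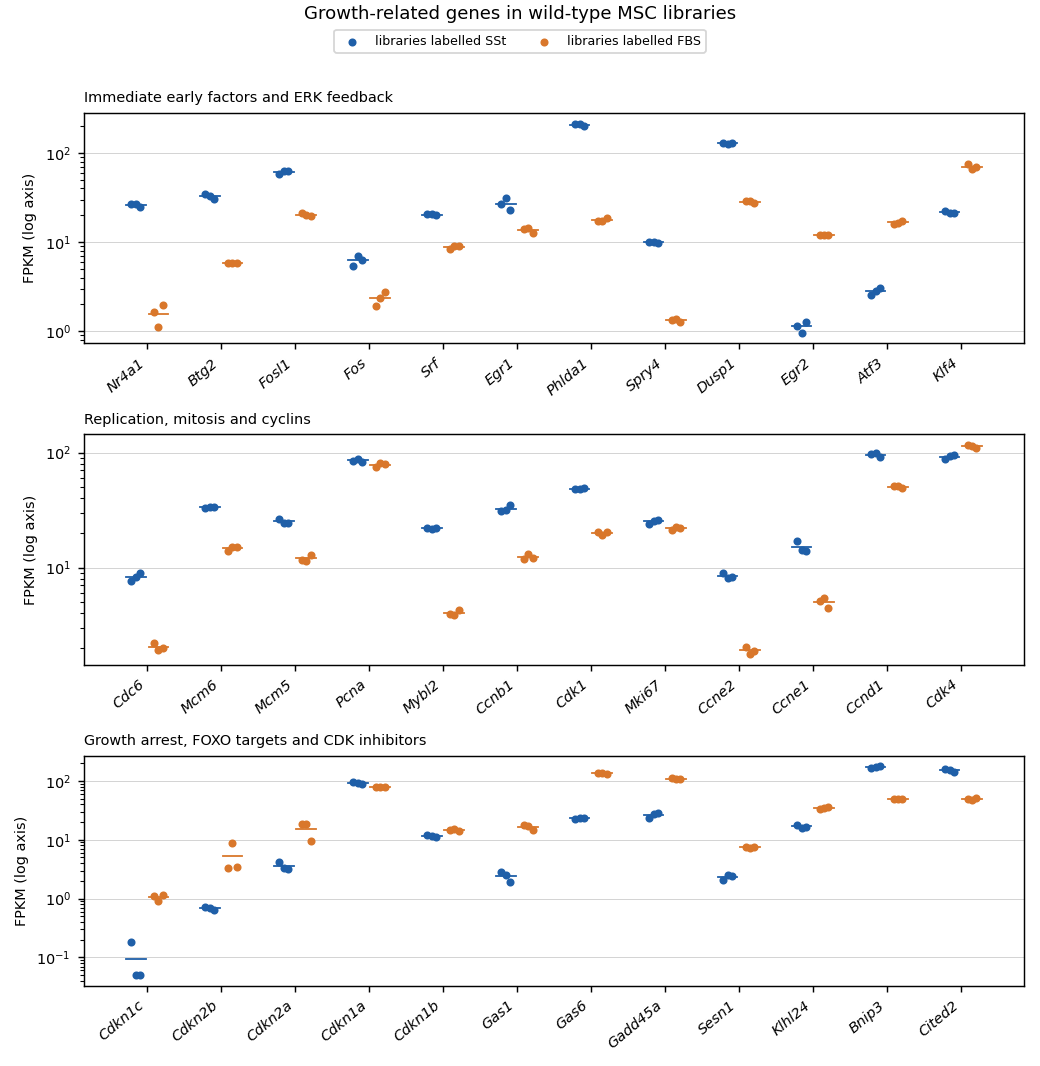
Level of growth-related genes in each WT library as FPKM on a log axis, with blue points for the 3 libraries labelled SSt, orange points for the 3 labelled FBS and short bars for group means. Nr4a1, Cdc6, Mybl2 and Ccne2 lie lower in FBS and Egr2, Cdkn1c, Gas1 and Gas6 higher, while Pcna and Mki67 differ little.

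Genes that license and copy DNA were lower in FBS, most of them by less than 4-fold. All 37 listed genes were tested, 12 were called lower and none higher, and the median was -0.88. Cdc6, which loads the replicative helicase on origins, measured 7.596, 8.33 and 9.04 FPKM in the SSt libraries and 2.23, 1.903 and 1.99 in the FBS libraries (log2 fold change -2.06 with an SE of 0.13, adjusted p = 2.63e-07). Mcm6, a helicase subunit whose promoter is shown above, measured 33.2, 33.98 and 33.4 FPKM in the SSt libraries and 13.9, 15.1 and 15.02 in the FBS libraries. Every FBS library was below every SSt library in both genes. The helicase subunit Mcm5 (-1.11), the origin binder Orc1 (-1.64) and the loader Cdt1 (-1.58) were called lower too. The abundant members moved less: Pcna, the sliding clamp, measured 85.6 ± 2.88 FPKM in SSt against 78.3 ± 3.602 in FBS (log2 fold change -0.17), Rrm2 had -0.45 and Tyms 0.14, none of them called.

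Mitosis genes showed the same direction, with 14 of 35 called lower, none higher and a median of -0.95. Mybl2, which activates genes of G2 phase, measured 22.1, 21.5 and 22.3 FPKM in the SSt libraries and 3.94, 3.85 and 4.24 in the FBS libraries (log2 fold change -2.49 with an SE of 0.055, adjusted p = 3.00e-10). Ccnb1, the mitotic cyclin, measured 30.96, 31.7 and 35.1 FPKM in the SSt libraries and 11.99, 13.2 and 12.04 in the FBS libraries. Its kinase Cdk1 measured 47.8, 48.8 and 48.8 FPKM in the SSt libraries and 20.5, 19.4 and 20.3 in the FBS libraries. In these genes the groups were apart by more than the spread of either. The cytokinesis protein Anln (-1.88) and the spindle checkpoint kinase Ttk (-1.32) were also called lower. Mki67, the usual proliferation marker, measured 24.2, 25.3 and 26.1 FPKM in the SSt libraries and 21.2, 22.7 and 22.2 in the FBS libraries. That is a log2 fold change of -0.23 (SE 0.043, adjusted p = 9.35e-04), far smaller than for Ccnb1 or Mybl2.

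Among 21 cyclins, kinases and inhibitors, 3 were called lower and 3 higher, beside 7.14% and 8.95% of all genes. The E cyclins, which drive entry into S phase, were lower: Ccne2 measured 8.93, 8.07 and 8.21 FPKM in the SSt libraries and 2.05, 1.77 and 1.89 in the FBS libraries (log2 fold change -2.18 with an SE of 0.16, adjusted p = 1.25e-06), and Ccne1 had a log2 fold change of -1.63. Ccnd1, the D cyclin that growth factors raise, measured 97.1, 98.5 and 92.2 FPKM in the SSt libraries and 51.000, 51.5 and 48.8 in the FBS libraries. Its log2 fold change of -0.96 stayed just under the fold limit. Cdk4 (0.27), Ccnd2 (0.55) and Ccnd3 (-0.71) were not called either. The inhibitors split. Cdkn2b, which encodes p15, measured 0.717, 0.700 and 0.629 FPKM in the SSt libraries and 3.35, 8.88 and 3.39 in the FBS libraries. Its neighbour Cdkn2a measured 4.11, 3.32 and 3.23 FPKM in the SSt libraries and 18.3, 18.6 and 9.63 in the FBS libraries. In both, all FBS values were above all SSt values, but the FBS libraries differed among themselves by more than 1.5 times. Cdkn1a, which encodes p21, measured 92.99 ± 3.06 FPKM in SSt against 77.9 ± 0.821 in FBS, and Cdkn1b, which encodes p27, 11.6 ± 0.436 FPKM in SSt against 14.5 ± 0.532 in FBS, and neither was called. Of the E2F factors, E2f7, a repressor, was called lower (-1.05) and E2f2 higher (1.58).

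Growth arrest genes and known FOXO targets were higher for 9 and lower for 2 of 26 tested, with a median of 0.42. Gas1, a membrane protein named for its rise in growth-arrested fibroblasts, measured 2.82, 2.49 and 1.92 FPKM in the SSt libraries and 17.8, 16.8 and 14.4 in the FBS libraries (log2 fold change 2.72 with an SE of 0.15, adjusted p = 1.04e-07). Gas6, a ligand of AXL and MERTK, measured 22.5, 23.7 and 22.98 FPKM in the SSt libraries and 137, 138 and 132 in the FBS libraries (log2 fold change 2.52 with an SE of 0.037, adjusted p = 3.27e-11). Cdkn1c, which encodes p57, measured 0.181, 0.0505 and 0.0498 FPKM in the SSt libraries and 1.11, 0.894 and 1.16 in the FBS libraries. Each of the 3 was higher in every FBS library than in any SSt library, though Cdkn1c was near the lower limit of detection in SSt. Gadd45a, a stress sensor, had a log2 fold change of 1.999, and the sestrins Sesn1 and Sesn3, which restrain mTORC1, 1.61 and 1.26. Klhl24 (1.01), the mitophagy kinase Pink1 (1.05) and Trib2 (1.74) were called higher as well. The 2 called lower were Bnip3 (-1.84) and Cited2 (-1.65), both also known hypoxia targets. Foxo1 (-0.20), Foxo3 (0.11), Txnip (-0.27) and Irs2 (0.14) were not called. Targets of p53 were called higher for 3 of 14 and lower for 0, namely the death receptor genes Eda2r (3.38, or 4.03 without SSt replicate 2) and Fas (1.65) and the autophagy regulator Tp53inp1 (1.94).

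Sterol genes were the list with the highest median, 1.63, among the lists with at least 5 tested members. All 27 were tested, 21 were called higher and none lower. Tm7sf2, a sterol reductase, measured 3.98, 4.56 and 5.27 FPKM in the SSt libraries and 51.5, 49.2 and 46.4 in the FBS libraries (log2 fold change 3.38 with an SE of 0.10, adjusted p = 2.11e-09). Sc5d, a sterol desaturase, measured 8.68, 8.92 and 9.13 FPKM in the SSt libraries and 45.2, 47.8 and 46.2 in the FBS libraries (log2 fold change 2.34 with an SE of 0.049, adjusted p = 2.14e-10). The decarboxylase Mvd measured 14.8, 15.1 and 14.9 FPKM in the SSt libraries and 79.004, 87.8 and 77.5 in the FBS libraries. The groups did not overlap in any of these enzymes. Insig1, which holds SREBP in the endoplasmic reticulum, had a log2 fold change of 1.70. The cholesterol exporter Abca1 had a negative change and measured 30.9 ± 2.47 FPKM in SSt against 18.5 ± 1.23 in FBS (-0.77), which was not called.

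**Figure D3:**
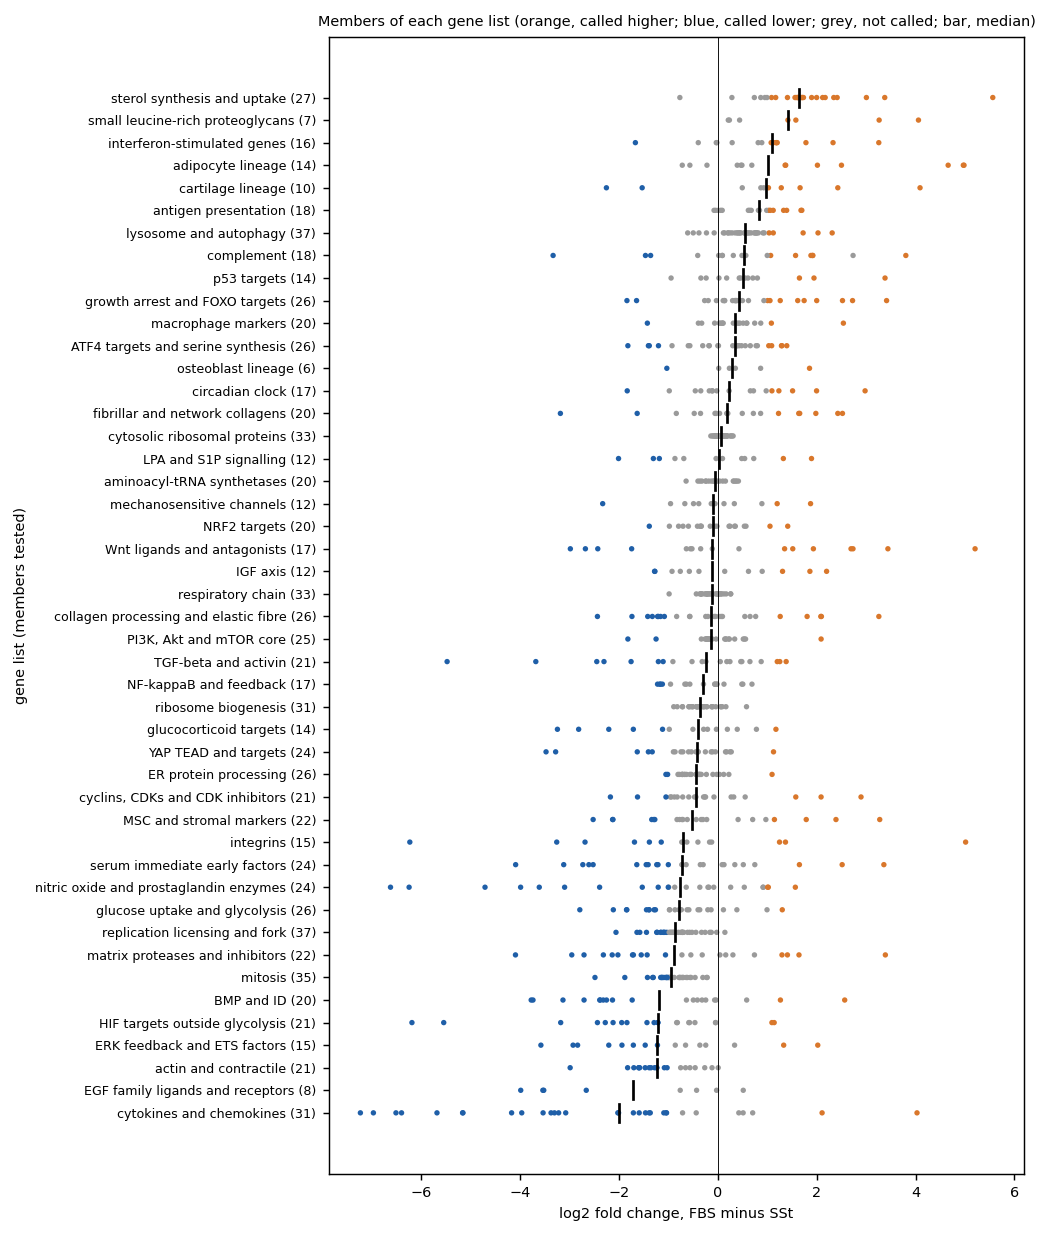
Log2 fold change, FBS minus SSt, of each tested member of the gene lists with at least 5 members (points), with the list median as a black bar and the number tested after each name. Orange points were called higher, blue points called lower and grey points not called. Sterol genes and small leucine-rich proteoglycans have the highest medians and cytokines and EGF family genes the lowest.

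Inflammatory mediators formed the list with the lowest median, -2.01 over 31 cytokines and chemokines, of which 24 were called lower and 2 higher. Il1b, a cytokine made mainly by myeloid cells, measured 1003, 968 and 837 FPKM in the SSt libraries and 19.2, 17.7 and 19.03 in the FBS libraries (log2 fold change -5.69 with an SE of 0.25, adjusted p = 2.16e-08). Il1a measured 327, 356 and 298 FPKM in the SSt libraries and 2.18, 2.68 and 3.12 in the FBS libraries. The SSt libraries were above the FBS libraries by over 30-fold in both. Enzymes of prostaglandin and arginine metabolism were lower too: of 24 genes 10 were called lower and 3 higher. Ptgs2, the inducible cyclooxygenase, measured 787, 835 and 811 FPKM in the SSt libraries and 53.6, 50.5 and 52.5 in the FBS libraries, and Ptges, which makes prostaglandin E2, had a log2 fold change of -4.71. The arginine transporter Slc7a2 (-3.62) and arginase Arg1 (-6.25) were lower as well. The NF-kappaB subunits Nfkb1 (-0.06) and Rela (-0.06) were not called, while 4 of 17 genes of the pathway, all known feedback targets, were called lower: Nfkbia (-1.18), Tnfaip3 (-1.16), Birc3 (-1.22) and Zc3h12a (-1.12). The 2 chemokines called higher included Cx3cl1 (1.49 ± 0.237 FPKM in SSt against 24.98 ± 2.52 in FBS, log2 fold change 4.03). Cxcl12, the niche chemokine of marrow stroma, measured 26.5 ± 0.472 FPKM in SSt against 44.2 ± 2.11 in FBS and was not called.

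Antigen presentation and complement genes were called mostly in the other direction. Of 18 antigen presentation genes, 7 were called higher and none lower (median 0.83). Cd74, the MHC class II invariant chain, measured 111, 108 and 102 FPKM in the SSt libraries and 390.1, 319 and 360.1 in the FBS libraries (log2 fold change 1.70 with an SE of 0.066, adjusted p = 1.03e-08). Its regulator Ciita (1.68) and the immunoproteasome subunits Psmb9 (1.33) and Psmb10 (1.39) were higher too, while the class I light chain B2m had a log2 fold change of 0.01. Complement genes were called higher for 6 and lower for 3 of 18. The classical protease C1s measured 87.5, 83.4 and 84.2 FPKM in the SSt libraries and 330.4, 323 and 337 in the FBS libraries. All FBS libraries were above all SSt libraries, as for its partner C1r (1.07) and the C1 inhibitor Serping1 (1.91). Cd55, a surface inhibitor of complement, went the other way (-3.34). The summed macrophage markers, mostly through Lyz2, were higher in the same libraries, and their part in these differences and in those of the cytokines was not tested.

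Genes of glucose use and known targets of the hypoxia factor HIF-1 were lower in FBS. Of 26 glycolysis genes 9 were called lower and 1, Aldoc (1.30), higher, and of 21 other HIF targets 12 lower and 2 higher. Over all genes the shares were 7.14% lower and 8.95% higher. Slc16a3, the lactate exporter, measured 223, 219 and 234 FPKM in the SSt libraries and 31.1, 36.9 and 31.9 in the FBS libraries (log2 fold change -2.80 with an SE of 0.091, adjusted p = 2.98e-09). The glucose transporter Slc2a1 measured 232, 238 and 237 FPKM in the SSt libraries and 87.8, 89.6 and 88.5 in the FBS libraries. Stc1, a secreted glycoprotein, measured 29.8, 30.3 and 33.98 FPKM in the SSt libraries and 0.499, 0.736 and 0.817 in the FBS libraries. The groups did not overlap in these 3 genes, and Stc1 was below 1 FPKM in each FBS library. The carbonic anhydrase Ca12 measured 1.07, 1.19 and 1.28 FPKM in the SSt libraries and 0, 0.0424 and 0 in the FBS libraries, so low in FBS that its log2 fold change was -6.19 with all libraries and -10.66 without FBS replicate 2, a fitted value against libraries at 0 that is no bound. Another, Ca9 (-3.18), the peptide hormone Adm (-2.12) and the prolyl hydroxylase Egln3 (-2.28) were lower. Vegfa, the angiogenic factor, measured 171 ± 42.6 FPKM in SSt against 45.5 ± 11.2 in FBS, and Hif1a itself 161 ± 0.612 FPKM in SSt against 60.8 ± 1.102 in FBS (log2 fold change -1.44 with an SE of 0.034, adjusted p = 3.98e-10). Ndrg1 (1.14) and Bhlhe40 (1.09) were called higher despite being on the same list, and Kdm3a, a demethylase known to be raised by HIF-1, had a log2 fold change of -0.05.

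Matrix genes were called in both directions. Among 20 collagens 6 were called higher and 2 lower. Col3a1, the chain of type III fibrils, measured 378, 388 and 361 FPKM in the SSt libraries and 1570.3, 1514 and 1476 in the FBS libraries (log2 fold change 1.98 with an SE of 0.034, adjusted p = 6.88e-11). Col6a1, a chain of the pericellular type VI network, measured 68.9, 71.4 and 68.3 FPKM in the SSt libraries and 229, 217 and 218 in the FBS libraries. Col14a1, which decorates fibrils, measured 14.6, 14.8 and 15.9 FPKM in the SSt libraries and 94.4, 85.8 and 86.1 in the FBS libraries. Every FBS library exceeded every SSt library in these collagens. Col1a1, the main chain of bone matrix, measured 781 ± 7.51 FPKM in SSt against 1458 ± 72.7 in FBS and stayed under the fold limit (0.86), while Col5a1 (-0.03) and Col5a2 (0.03) were close to 0 change. Col7a1, which forms anchoring fibrils, measured 6.14, 6.03 and 6.49 FPKM in the SSt libraries and 0.770, 0.743 and 0.582 in the FBS libraries, and Col8a1 had a log2 fold change of -1.63. These were the 2 collagens called lower.

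Small leucine-rich proteoglycans, which bind collagen fibrils and set their width, were higher or level: 4 of 7 were called higher, none lower, and the median was 1.42. Lum measured 399.6, 384 and 402 FPKM in the SSt libraries and 1199.9, 1227 and 1200.2 in the FBS libraries. Aspn measured 6.13, 6.02 and 4.12 FPKM in the SSt libraries and 59.7, 40.5 and 59.9 in the FBS libraries (log2 fold change 3.26 with an SE of 0.21, adjusted p = 3.44e-07). Both were higher in all FBS libraries. The most abundant members, Dcn (1751 ± 34.3 FPKM in SSt against 2075 ± 42.2 in FBS) and Bgn (1053 ± 19.2 FPKM in SSt against 1268 ± 26.1 in FBS), were not called. Enzymes that cross-link collagen went down, with Lox at 389 ± 9.68 FPKM in SSt against 159 ± 5.25 in FBS (-1.33), Loxl2 at -1.22 and Loxl4 at -1.74, except Loxl1, which was higher (1.26). The elastic fibre proteins Fbln5 (2.09) and Mfap5 (2.08) and the procollagen protease Adamts2 (1.80) were called higher. The collagen chaperone Serpinh1 measured 406 ± 2.86 FPKM in SSt against 434 ± 7.64 in FBS and was not called.

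**Figure D4:**
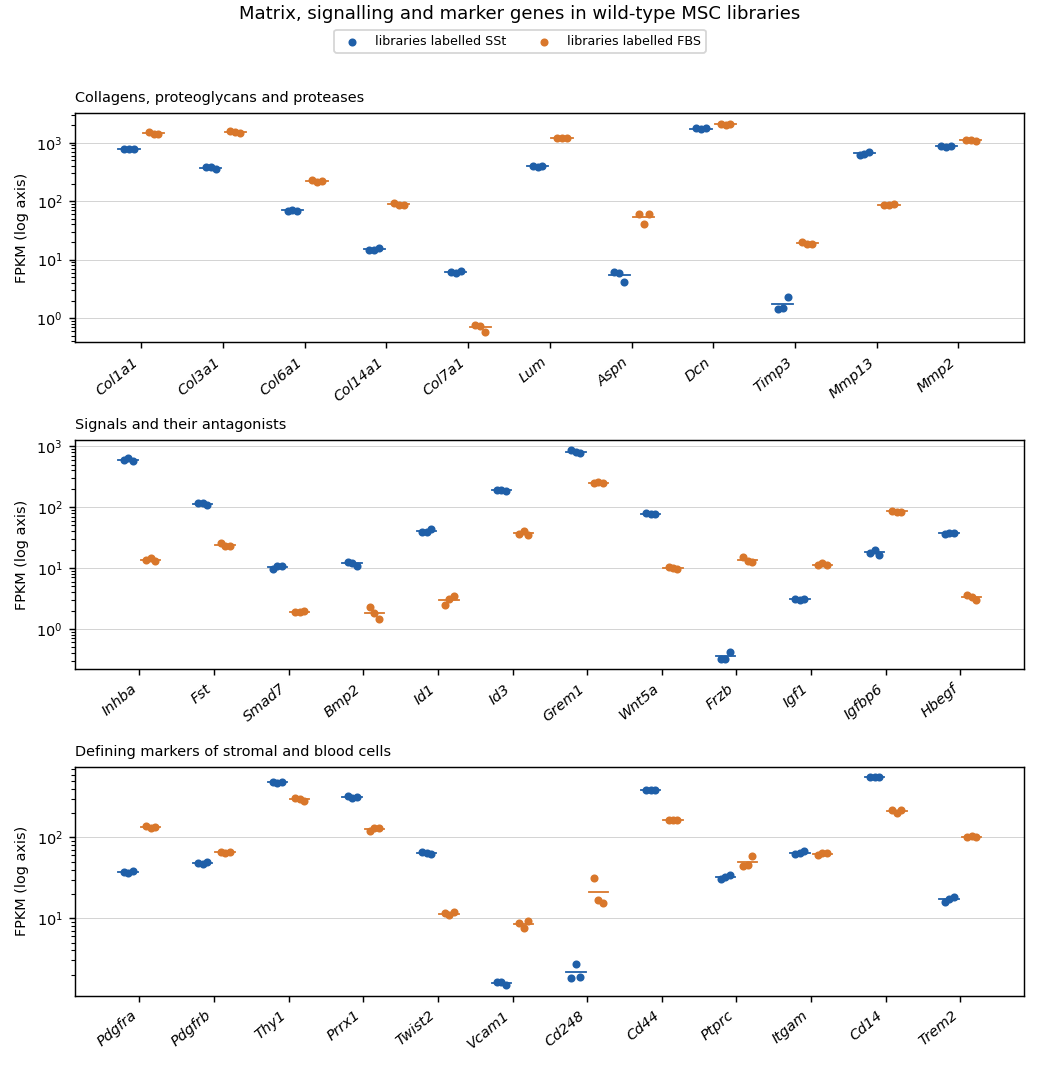
Level of matrix, signalling and marker genes in each WT library as FPKM on a log axis, with blue points for the 3 libraries labelled SSt, orange points for the 3 labelled FBS and short bars for group means. Col3a1, Aspn, Timp3 and Frzb lie higher in FBS, and Inhba, Id1 and Wnt5a lower. Pdgfrb and Itgam differ little.

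Proteases that cut matrix and their inhibitors were lower for 11 and higher for 4 of 22. The urokinase Plau had a log2 fold change of -1.71 and its receptor Plaur -2.71. The collagenase Mmp13 measured 621, 655 and 709 FPKM in the SSt libraries and 86.4, 87.6 and 87.9 in the FBS libraries, without overlap. Mmp3, a stromelysin and one of the most abundant transcripts in SSt, measured 3099 ± 117 FPKM in SSt against 781 ± 32.4 in FBS. By contrast Mmp2 (874 ± 21.1 FPKM in SSt against 1105 ± 15.6 in FBS) and Mmp14 (471 ± 6.76 FPKM in SSt against 497 ± 6.54 in FBS) were not called, and Mmp12, the macrophage elastase, was higher (1.30). The inhibitors also parted: Timp3 measured 1.43, 1.51 and 2.34 FPKM in the SSt libraries and 20.3, 18.2 and 18.4 in the FBS libraries (log2 fold change 3.39 with an SE of 0.17, adjusted p = 7.49e-08), Timp1 was lower (-1.43) and Timp2 was not called (0.74). Of 15 integrin subunits, 6 were called lower and 3 higher. The lower ones included the collagen receptor Itga2 (-3.26), the laminin receptor Itga7 (-2.69) and Itgb3 (-1.69). The fibronectin and VCAM1 receptor Itga4 (5.01) and another collagen receptor, Itga11 (1.25), were higher, and the common beta chain Itgb1 measured 398 ± 4.33 FPKM in SSt against 249.6 ± 2.78 in FBS and was not called.

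Contractile genes, known targets of SRF with its cofactor MRTF, were lower in 14 of 21 and higher in none, with a median of -1.24. Actg1, a cytoplasmic actin, measured 2472, 2523 and 2422 FPKM in the SSt libraries and 695, 745 and 897 in the FBS libraries (log2 fold change -1.70 with an SE of 0.085, adjusted p = 6.09e-08). Tagln, an actin-binding protein, measured 238, 262 and 239 FPKM in the SSt libraries and 79.6, 88.4 and 81.8 in the FBS libraries. The FBS libraries were at less than 40% of the SSt mean in each. Cnn1 (-2.99), Actn1 (-1.83) and Myl9 (-1.60) were called lower too. Actb, the other cytoplasmic actin and a common reference gene, measured 2842 ± 80.3 FPKM in SSt against 1727 ± 3.94 in FBS, a log2 fold change of -0.75 (adjusted p = 1.44e-09) under the fold limit. Acta2, smooth muscle actin, was not called (-0.12). Of 24 genes of the YAP pathway 5 were called lower and 1 higher, beside 7.14% and 8.95% of all genes. Its targets Ccn1 and Ccn2 moved in opposite directions. Ccn1 measured 181, 178 and 168 FPKM in the SSt libraries and 16.2, 15.8 and 16.5 in the FBS libraries (log2 fold change -3.48 with an SE of 0.049, adjusted p = 2.83e-11). Ccn2 measured 104, 108 and 98.7 FPKM in the SSt libraries and 238, 238 and 217 in the FBS libraries (log2 fold change 1.12 with an SE of 0.061, adjusted p = 1.17e-07). In neither gene did the groups overlap. F3, tissue factor (-3.28), and the kinase Nuak2 (-1.63) were called lower. Yap1 (-0.54), its paralog Wwtr1 (-0.60) and Tead1 (-0.42) were not called.

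Ligands, antagonists, receptors and early targets of TGF-beta, activin and BMP were called in both directions, more of them lower than higher. In the TGF-beta and activin list 7 of 21 were called lower and 3 higher. Inhba, the activin A subunit, measured 603, 630.2 and 563 FPKM in the SSt libraries and 13.5, 14.5 and 13.2 in the FBS libraries (log2 fold change -5.48 with an SE of 0.070, adjusted p = 1.88e-11). The activin antagonists Fst and Fstl3 followed it (-2.31 and -3.69). Smad7, the inhibitory SMAD that TGF-beta induces, measured 9.596, 10.7 and 10.6 FPKM in the SSt libraries and 1.91, 1.896 and 1.97 in the FBS libraries. In Inhba the SSt libraries were over 35-fold above the FBS libraries. The 3 genes called higher were the receptors Tgfbr2 (1.20) and Tgfbr3 (1.38) and the signal transducer Smad3 (1.25), and Tgfb1 itself measured 135 ± 3.05 FPKM in SSt against 143 ± 2.87 in FBS and was not called.

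In the BMP list 10 of 20 were called lower and 2 higher, with a median of -1.19. Id1, a dominant-negative partner of bHLH factors and a direct BMP target, measured 38.9, 39.7 and 43.7 FPKM in the SSt libraries and 2.502, 3.07 and 3.53 in the FBS libraries (log2 fold change -3.78 with an SE of 0.21, adjusted p = 1.20e-07). Id3 measured 194, 188 and 185 FPKM in the SSt libraries and 36.3, 40.1 and 35.1 in the FBS libraries. The ligand Bmp2 measured 12.7, 11.9 and 10.95 FPKM in the SSt libraries and 2.27, 1.85 and 1.45 in the FBS libraries. All 3 were lower in every FBS library. The antagonist Grem1 (817 ± 38.7 FPKM in SSt against 252 ± 4.802 in FBS, log2 fold change -1.74) was lower, while the antagonist Chrd (2.57) and the ligand Bmp4 (1.26) were higher at low levels. Id2 (-0.42), the receptor Bmpr2 (-0.07) and the transducers Smad1 (-0.50) and Smad5 (-0.04) were not called.

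Of the Wnt list, 4 secreted antagonists were among the genes called higher. Frzb, a secreted Wnt-binding protein, measured 0.325, 0.325 and 0.420 FPKM in the SSt libraries and 15.1, 12.9 and 12.7 in the FBS libraries (log2 fold change 5.20 with an SE of 0.13, adjusted p = 7.29e-10). Sfrp1 (1.93), Sfrp2 (1.51) and Dkk3 (1.35) were also higher. Wnt5a, a non-canonical ligand, measured 79.3, 76.1 and 77.6 FPKM in the SSt libraries and 10.5, 9.93 and 9.67 in the FBS libraries (log2 fold change -2.99 with an SE of 0.043, adjusted p = 3.11e-11). Frzb was nearly absent in SSt, and Wnt5a was lower in FBS without overlap. Axin2, the common target of canonical Wnt signalling, was lower (-1.75), as was Nkd2 (-2.43), while the receptor Lgr5 (2.73), Fzd4 (2.69) and the ligand Wnt16 (3.44) were higher. In all, 7 of 17 tested were called higher and 4 lower, out of 29 in the table. In the IGF axis the ligand Igf1 measured 3.102, 2.97 and 3.07 FPKM in the SSt libraries and 11.04, 12.005 and 11.1 in the FBS libraries (log2 fold change 1.86 with an SE of 0.071, adjusted p = 8.89e-09), higher in every FBS library. The binding proteins Igfbp6 (2.20) and Igfbp4 (1.31) were higher and Igfbp3 (-1.28) and Igfbp5 (-1.28) lower. The receptors Igf1r (-0.76), Insr (0.62) and Igf2r (0.90) were not called.

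Irs1, an adaptor of the insulin and IGF receptors, measured 2.84, 2.89 and 2.84 FPKM in the SSt libraries and 2.27, 2.19 and 2.27 in the FBS libraries (log2 fold change -0.38 with an SE of 0.063, adjusted p = 3.51e-04). The FBS libraries were all slightly lower, and the gene passed the adjusted p but not the fold limit. In the PI3K, Akt and mTOR core 1 of 25 genes was called higher and 2 lower, beside 8.95% and 7.14% of all genes. At the adjusted p 10 were higher and 12 lower, beside 33.7% and 32.7%. Calls in both directions together were thus no more frequent than the 16.1% of all genes. Passes of the adjusted p were more frequent than the 66.4% of all genes, most of them with changes under 2-fold. The difference of these shares was not tested. Akt1 (-0.34), Mtor (-0.26) and Pik3ca (-0.22) were not called. The called genes were inhibitors of mTOR and 1 regulatory subunit: Deptor measured 1.56, 1.66 and 1.56 FPKM in the SSt libraries and 7.72, 6.52 and 6.67 in the FBS libraries, Ddit4 had a log2 fold change of -1.82 and Pik3r3 of -1.25. The 2 mTOR inhibitors thus moved in opposite directions. Piezo1, the mechanically gated channel, measured 57.2, 58.004 and 57.1 FPKM in the SSt libraries and 59.5, 55.1 and 54.96 in the FBS libraries (-0.06). It did not differ beyond the spread between libraries (adjusted p = 0.236). Of 12 such channels, Kcnk2 (1.87) and Trpc6 (1.20) were called higher and Pkd2 lower (76.3 ± 2.45 FPKM in SSt against 15.5 ± 0.123 in FBS, log2 fold change -2.33). The miR-337 gene line (Mir337) had no count in any of the 6 libraries, and small RNA was not analysed here.

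Stromal markers were measured in all libraries, but not at constant levels. Of 24 listed genes, 22 were tested, 6 called lower and 4 higher. Pdgfra, the PDGF receptor of mesenchymal progenitors, measured 37.6, 36.5 and 38.9 FPKM in the SSt libraries and 137, 129.6 and 133 in the FBS libraries (log2 fold change 1.79 with an SE of 0.045, adjusted p = 6.20e-10). Prrx1, a mesenchymal homeobox factor, measured 322, 309 and 313 FPKM in the SSt libraries and 120.1, 132 and 130.2 in the FBS libraries. Cd248, a stromal surface protein, measured 1.83, 2.69 and 1.88 FPKM in the SSt libraries and 31.5, 16.8 and 15.4 in the FBS libraries. Pdgfra and Cd248 were higher and Prrx1 lower in every FBS library, and replicate 1 of Cd248 was the highest of the FBS values. Vcam1 (2.39) and Alcam (1.14) were higher, and Twist2 (-2.53), Prrx2 (-2.12), Cd44 (-1.28) and Cspg4 (-1.30) lower. The surface markers Thy1 (-0.73), Eng (-0.62), Nt5e (-0.23) and Pdgfrb (0.41) were not called.

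Macrophage markers were not uniformly higher. Of 20 tested, 2 were called higher and 1 lower, and 11 were higher and 3 lower at the adjusted p (beside 33.7% and 32.7% of all genes). Trem2 measured 16.1, 17.2 and 18.1 FPKM in the SSt libraries and 100.4, 105 and 100.2 in the FBS libraries (log2 fold change 2.54 with an SE of 0.056, adjusted p = 2.85e-10), and Lyz2, lysozyme, was the most abundant of them with 2299 ± 74.1 FPKM in SSt against 4987 ± 183 in FBS. Cd14, a receptor for lipopolysaccharide, was lower (558 ± 2.47 FPKM in SSt against 213 ± 10.01 in FBS, log2 fold change -1.43). Itgam (-0.07), Mrc1 (0.05), Csf1r (0.41), Adgre1 (-0.40) and Cd68 (0.87) were not called. Of 21 markers of lymphoid, erythroid and neutrophil cells 4 passed the filter and 13 were at 0 in all 3 libraries of each group, and their sum was 62.6 to 68.7 FPKM in SSt and 83.7 to 92.98 in FBS. Most of it was Cd4 (55.7 ± 4.05 FPKM in SSt against 85.9 ± 5.11 in FBS), which rat macrophages are also known to express. The neutrophil genes S100a8 (5.697 ± 1.34 FPKM in SSt against 0.0532 ± 0.0921 in FBS) and Camp (-1.83) were called lower. Of 10 endothelial markers 3 passed, with sums of 19.95 to 20.97 and 32.1 to 33.3 FPKM, and the receptor Tie1 was called higher (7.12 ± 0.521 FPKM in SSt against 22.4 ± 0.185 in FBS, log2 fold change 1.62). Among defining genes, the highest value in the 6 libraries was 0 FPKM for Cd3e, 0.0474 for Kdr and 0.844 for Cdh5.

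Several defining lineage genes were low. In the adipocyte list 7 of 14 tested genes were called higher and none lower, beside 8.95% and 7.14% of all genes, with a median of 1.02. The osteoblast factor Runx2 measured 4.595 ± 0.169 FPKM in SSt against 5.53 ± 0.567 in FBS and was not called, and Sp7, the next factor of that lineage, had 0.397, 0.469 and 0.567 FPKM in the SSt libraries and 0, 0 and 0 in the FBS libraries, too low to be tested. Alkaline phosphatase Alpl was higher (0.835 ± 0.175 FPKM in SSt against 3.11 ± 0.396 in FBS, log2 fold change 1.85) and osteoprotegerin Tnfrsf11b lower (-1.03). Bone sialoprotein Ibsp and osteocalcin Bglap did not exceed 0.524 and 0.278 FPKM. Of the adipocyte genes Pparg measured 0.412, 0.659 and 0.478 FPKM in the SSt libraries and 2.51, 2.04 and 1.91 in the FBS libraries and Lpl, the lipase that frees fatty acids from lipoproteins, 3.95, 4.35 and 5.61 FPKM in the SSt libraries and 118, 123 and 119.8 in the FBS libraries. Both were higher in all FBS libraries, while the fat cell genes Adipoq and Plin1 did not exceed 0.0533 and 0.0655 FPKM. In the cartilage list 5 of 10 tested genes were called higher, among them Cilp (0.437 ± 0.0889 FPKM in SSt against 7.68 ± 0.902 in FBS, log2 fold change 4.09) and Comp (1.66), and 2 lower, Acan (-1.53) and Matn4 (-2.26). Sox9, the master factor of cartilage, measured 0.505 ± 0.0793 FPKM in SSt against 0.945 ± 0.0636 in FBS and was not called.

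Among genes of the cell's housekeeping machinery, the ribosome, respiratory chain and aminoacyl-tRNA synthetase lists had no call, unlike the lysosome list. Of 37 lysosome and autophagy genes 30 were higher at the adjusted p (beside 33.7% of all genes) and 5 lower. Of the 37, 5 were called higher (beside 8.95% of all genes) and none lower. Lipa, the acid lipase that frees cholesterol from lipoproteins, measured 24.3, 26.3 and 28.4 FPKM in the SSt libraries and 109, 111 and 109 in the FBS libraries (log2 fold change 2.02 with an SE of 0.053, adjusted p = 7.55e-10). Ctsd, a protease whose promoter is shown above, measured 998, 1024 and 1055 FPKM in the SSt libraries and 2164, 2423 and 2268 in the FBS libraries. Both were higher in each FBS library. Tfeb, the factor that drives lysosome genes, was higher by 1.72 and the proton pump subunit Atp6v0d2 by 2.31, whereas Ctsb (0.54) was under the fold limit and Ctsl had a negative log2 fold change (-0.61). Macrophages are rich in lysosomes, and the markers' sum, mostly through Lyz2, was higher in the same libraries; their part in this result was not tested. Ribosome biogenesis genes were lower at the adjusted p in 23 of 31 (beside 32.7% of all genes) and higher in 1, all by less than 2-fold, with -0.51 for nucleolin Ncl and -0.59 for fibrillarin Fbl. Cytosolic ribosomal proteins had a median of 0.07 and no call among 33, the respiratory chain -0.13 and no call among 33, with 19 lower and 3 higher at the adjusted p, and aminoacyl-tRNA synthetases -0.06 and no call among 20.

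In protein folding, 21 of 26 endoplasmic reticulum genes were lower at the adjusted p (beside 32.7% of all genes), of which Hyou1 (-1.05) and Dnajb11 (-1.02) were called. The chaperone Hspa5 measured 601 ± 25.03 FPKM in SSt against 372 ± 2.65 in FBS (-0.73) and was not called, and Herpud1 was higher (1.10). Targets of ATF4, the factor of amino acid shortage, were mixed, with 5 called higher and 4 lower of 26. Phgdh, the first enzyme of serine synthesis (1.30), and Atf5 (1.29) were higher, and the cystine transporter Slc7a11 (-1.39) and Shmt2 (-1.20) lower. The NRF2 targets Hmox1 (-0.34) and Nqo1 (-0.41) were not called. Clock output genes were higher: Bhlhe41, a repressor of the clock, measured 4.43, 5.23 and 5.01 FPKM in the SSt libraries and 38.1, 41.4 and 39.1 in the FBS libraries, and Per3 (1.996), Tef (1.51) and Dbp (1.23) were called. The core genes Arntl (-0.35) and Nr1d1 (-0.18) were not called, and Nfil3, which opposes Dbp, was lower (-1.84). Known glucocorticoid targets were called lower for 5 and higher for 1 of 14. Receptors and enzymes of lysophospholipids, which serum carries, were called higher for 2 and lower for 3 of 12. Over all genes the shares were 8.95% higher and 7.14% lower.

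The genes with the largest changes were ranked among those with a mean of at least 5 FPKM in the higher group and no overlap. Olfml2a, a secreted matrix protein, measured 0.220, 0.190 and 0.154 FPKM in the SSt libraries and 14.1, 12.5 and 12.97 in the FBS libraries (log2 fold change 6.10 with an SE of 0.11, adjusted p = 1.23e-10). Sned1, a matrix glycoprotein, measured 0.669, 0.615 and 0.569 FPKM in the SSt libraries and 30.5, 29.6 and 30.3 in the FBS libraries. Mgll, the lipase of monoacylglycerols, measured 0.324, 0.288 and 0.826 FPKM in the SSt libraries and 18.05, 21.9 and 19.01 in the FBS libraries. These genes were under 1 FPKM in every SSt library and above 10 in every FBS library. Clec3b (5.02), the oxidase Aox1 (4.96), the ATP-gated channel P2rx7 (4.43), the fatty acid transporter Slc27a6 (4.41) and the myeloid receptor Lilrb3 (5.35) were also among the 15 with the largest positive change. At the other end Lmcd1, a LIM protein of muscle, measured 41.1, 40.1 and 37.2 FPKM in the SSt libraries and 0.323, 0.413 and 0.296 in the FBS libraries (log2 fold change -6.85 with an SE of 0.23, adjusted p = 3.95e-09). Il10, an anti-inflammatory cytokine, measured 29.6, 36.99 and 32.9 FPKM in the SSt libraries and 0, 0 and 0.169 in the FBS libraries. Cd69, an activation marker of blood cells, measured 8.76, 10.3 and 11.9 FPKM in the SSt libraries and 0, 0.101 and 0.0743 in the FBS libraries. The FBS values of Il10 and Cd69 were at or near 0. Wfdc21 had no count in any FBS library and 23.8, 29.3 and 34.2 FPKM in the SSt libraries, so that it was at least 235-fold lower if each FBS library held 3 counts. The transcription cofactor Cited1 (-6.64, or -7.29 without FBS replicate 2) and the keratin Krt7 (-6.61) were lower as well.

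The same comparison was made in MSCs of miR-337-/- rats (KO), whose 3 SSt and 3 FBS libraries are separate from the WT ones and were normalised in a table of their own. There 2209 of 12888 genes were called (17.1%), 9.47% higher and 7.67% lower, and 2148 genes without KO FBS replicate 1, which correlated with the other 2 FBS libraries at 0.960 and 0.962 while those 2 correlated at 0.976. Of 1046 genes called higher in WT and tested in KO, 621 were called higher there and 1 lower. Of 861 genes called lower in WT, 447 were called lower in KO and 57 higher. The list medians were set side by side and their difference was not tested. Mitosis and replication genes had medians of -2.39 and -1.71 in KO beside -0.95 and -0.88 in WT. The sterol median was 1.54 beside 1.63, and that of contractile genes -1.25 beside -1.24. These 4 medians had the same sign in both genotypes.

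The medians of cytokines and NF-kappaB genes had opposite signs in the genotypes. The cytokine median was 0.31 in KO, with 10 of 31 called higher and 4 lower. The NF-kappaB median was 1.07, with 9 of 17 called higher and none lower. Over all genes tested in KO the shares were 9.47% higher and 7.67% lower. The KO list medians and counts were not recomputed without KO FBS replicate 1, so their dependence on that library was not tested. The macrophage marker median was 1.08 in KO beside 0.34 in WT, with 12 of 20 called higher and 2 lower in KO. The part of macrophages in the differences between the genotypes was not tested. Single genes were tested for a difference between the genotypes in a fit over all 18 libraries, in which 1191 of 13194 genes were called (9.03%), and 938 without KO FBS replicate 1. Nos2, the inducible nitric oxide synthase, measured 427 ± 23.7 FPKM in SSt against 4.43 ± 0.471 in FBS in WT and 3.42 ± 1.09 FPKM in SSt against 90.8 ± 128 in FBS in KO. Its log2 fold changes were -6.63 in WT and 4.82 in KO (2.34 without that library), a difference of -11.46, SE 1.33, adjusted p = 1.86e-05. Il1b had 2.77 in KO (1.07 without it), a difference of -8.47, SE 1.02, adjusted p = 2.45e-05. For both genes the WT libraries were lower in FBS and the KO libraries higher on average. Mmp13 measured 13.9 ± 3.91 FPKM in SSt against 142 ± 138 in FBS in KO, a log2 fold change of 3.43 (2.22 without that library) and a difference of -6.40, SE 0.78, adjusted p = 2.56e-05. KO levels in SSt were far below those of WT for Nos2 and Mmp13, so the changes started from different levels. Among cell cycle genes, Ccnb1 had -2.94 in KO beside -1.43 in WT, a difference of 1.502, SE 0.39, adjusted p = 0.00743. Mki67 had -1.72 beside -0.23, a difference of 1.48, SE 0.39, adjusted p = 0.00838. Both mitosis genes were lower by more in KO. Slc7a11 had 3.04 beside -1.39, a difference of -4.44, SE 0.30, adjusted p = 2.39e-07.

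**Figure D5:**
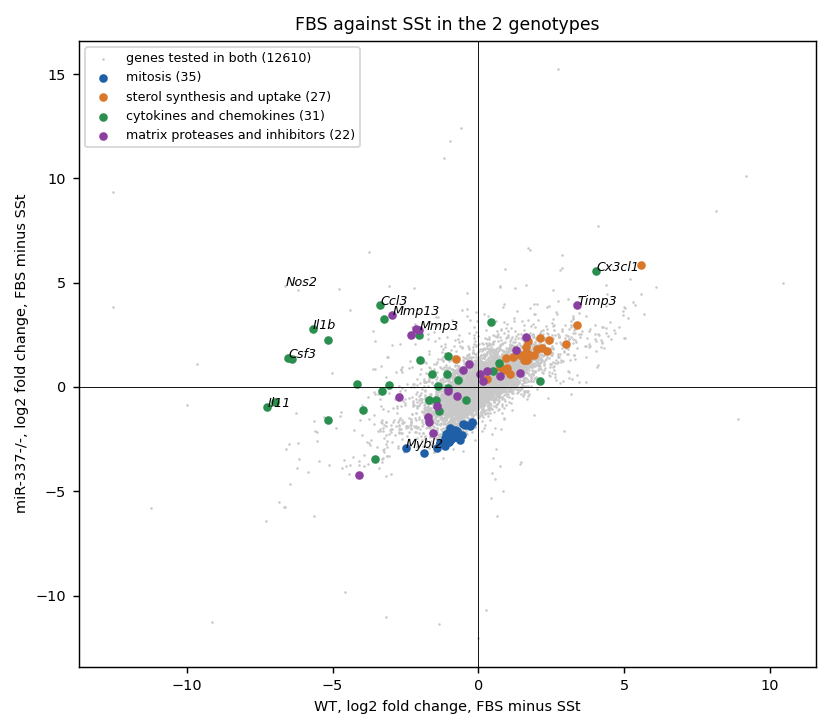
Log2 fold change, FBS minus SSt, in WT (x axis) and miR-337-/- MSCs (y axis) of each gene tested in both tables, with 4 gene lists in colour and the number of genes in brackets. Mitosis genes lie low on both axes and most sterol genes high on both. Nos2, Il1b, Ccl3, Mmp13 and Mmp3 lie in the upper left, lower in FBS in WT and higher in KO.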

How the data were processed

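RNA of cultured rat MSCs was sequenced. The authors deposited 1 table per genotype with raw read counts and FPKM values of every gene, and the deposited FPKM values divide the counts by transcript length and by mapped reads. Bowtie (0.12.2) and a mouse build, mm10, are listed in the submitters' processing notes, whereas the gene identifiers are those of rat Ensembl genes, so no coordinates were taken from the tables. The counting program is not given in the sources used here.

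Groups followed the sample titles. Counts of the 9 WT libraries were fitted together with edgeR 4.0.16 (quasi-likelihood test, TMM scaling, Benjamini-Hochberg adjustment over all 12916 genes reaching 1 FPKM in 3 or more of these libraries) in R 4.3.3, and the contrast FBS minus SSt was taken. KO counts were fitted in the same way, and the difference between the genotypes in all 18 libraries. Levels are FPKM per library, or mean ± SD with n = 3. Gene lists were described by counts of calls and medians, and by no test of the list. The fit was tested on simulated counts. No pair of WT libraries within the SSt group or within the FBS group agreed within sampling noise. Other pairs were not checked in this way. DESeq2 1.42.0 and limma 3.58.1 on log2(FPKM + pseudocount) served as alternatives, as did other scalings and filters, a replicate block and each library left out.

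The comparison, the gene lists and the rule for named genes were chosen with earlier results of these data known. By the rule these are the 15 called genes with the most positive and the 15 with the most negative fold change (mean of 5 FPKM or more in the higher group, no overlap), for each list its 4 tested members of highest FPKM and its 5 called members of largest fold change, all members of 6 lists (immediate early, ERK feedback, growth arrest, cyclins, stromal and macrophage markers) and Irs1, Lepr, Piezo1, Yap1, Mki67, Runx2, Mtor and Akt1. Named outside it, after their values were seen, were Abca1, Acta2, Aldoc, Arntl, Axin2, Bmp4, Bmpr2, Col5a1, Col6a1, Col8a1, Cx3cl1, Hif1a, Id2, Igf1r, Itga11, Kdm3a, Loxl1, Loxl2, Loxl4, Mcm5, Mcm6, Mmp14, Nkd2, Pik3ca, Plau, Rela, Sfrp1, Shmt2, Smad1, Smad3, Smad5, Sox9, Tead1, Tgfbr3, Timp1, Timp2, Tyms, Vegfa and Wwtr1. Where a symbol had 2 tested lines, the one with the higher mean FPKM was used. Reads of near-identical paralogs, such as Actb and Actg1, may have been split by the counting.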

Additional observations from a re-analysis of the deposited data

Results flagged for a closer look

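The genes named in both genotypes whose response to FBS differed in the fit over 18 libraries (edgeR, adjusted p under 0.05) are given as WT minus KO log2 fold changes, with 3 libraries in each group. The difference was 1.502 for Ccnb1 (SE 0.39), -8.47 for Il1b (SE 1.02), 1.48 for Mki67 (SE 0.39), -6.40 for Mmp13 (SE 0.78), -11.46 for Nos2 (SE 1.33), -4.44 for Slc7a11 (SE 0.30). The first KO FBS library correlated less with the other KO FBS libraries, and without it the differences kept their sign and stayed past the adjusted p. The largest adjusted p without it was 4.06e-04.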

How the results depend on the processing

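Of 2078 calls, 1968 to 2071 were also made under DESeq2 (2073 called), RLE scaling, library totals, only the 6 libraries compared, the replicate block and each library left out. Counts with 1 library left out were 2047 to 2096, of which 1143 to 1156 higher and 904 to 948 lower. On log2(FPKM + 5) limma called 678 genes (338 higher, 340 lower), and 1458 on log2(FPKM + 1), since a larger pseudocount shrinks the folds of low genes. With an FPKM of at least 5 required, 1294 were called (680 higher, 614 lower), out of 9526 tested. With no fold limit, 8580 passed (4354 higher, 4226 lower), and with no filter on low genes 2892 were called. No scaling moved the median of all genes by more than 0.05. Libraries of the same replicate number did not deviate together (correlations of -0.0135, -0.0679 and -0.0125). These values cannot tell whether such libraries shared a rat, culture or day, and the replicate block gave 2080 calls. The medians of the Wnt (0.45), IGF (0.16), endothelial (0.58) and lymphoid, erythroid and neutrophil (0.62) lists turned positive with the FPKM limit of 5, which leaves fewer members. Over 290 named genes and the alternatives run, 4507 values kept their side of the call and 98 lost it, 79 of these under the pseudocounts 1 and 5, and no called gene changed sign. Among genes not called, 12 values of 5 genes near 0 (B2m, Col5a1, Col5a2, Mrc1 and Smad5, at most 0.05 in size) changed sign, and 38 values of 10 genes crossed the adjusted p limit. The others lost lay at the fold limit: Egr1 (-0.95 without WT FBS replicate 3, -0.88 without WT SSt replicate 2), Klhl24 (0.97 to 0.99 without FBS replicate 2 or 3 or SSt replicate 2 or 3), Dnajb11, E2f7 and Tnfrsf11b. Leaving out 1 library moved a called fold by over 1.5 times for Ca12, Cited1, Eda2r, Cd69 (-8.01 without FBS replicate 2), Cdkn1c (4.26 without SSt replicate 1), Cdkn2b (2.26 without FBS replicate 2), Il10 (-8.44 without FBS replicate 2, -13.57 without FBS replicate 3), S100a8 (-10.17 without FBS replicate 1) and Mgll (5.94 without SSt replicate 3), most of them near 0 in 1 group, where a fitted fold is no bound. Genes under 1 FPKM were not tested, and 3 libraries per group limit the precision.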
